A study of Mus musculus with 6 samples.

Results

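The Myc, Max and Mxd network is a set of 10 transcription factor genes, Myc, Mycn, Mycl, Max, Mga, Mnt, Mxd1, Mxd3, Mxd4 and Mxi1. They were taken by symbol from a table of read counts over 27179 genes, and all 10 were found and had enough counts to be tested, among 14199 tested genes. The table comes from poly(A)-selected RNA of mouse embryonic stem cells of the ES-E14TG2a background, which carried FLAG-tagged Trim71 either without a further change (WT, 3 libraries) or with the amino-acid change R783H (3 libraries). Trim71 is an RNA-binding protein of stem cells, and the series concerns R783H as a cause of hydrocephalus. All 6 libraries came from cells grown with LIF and inhibitors of MEK and GSK3. The labels do not say how the FLAG tag and R783H were introduced, whether each kind of cell was a single clone, or whether replicates A, B and C were separate cultures, so the p-values measure the spread between these libraries, which may be technical.

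Myc proteins bind DNA only as dimers with Max, at E-boxes of the core sequence CACGTG, where they recruit coactivators to genes of ribosome production, nucleotide synthesis and cell division. Mxd proteins, Mxi1 and Mnt compete for Max and for the same sites, and recruit the Sin3 corepressor with its histone deacetylases. Mga also pairs with Max, but acts within the polycomb complex PRC1.6, which keeps germline genes silent in embryonic stem cells. In these cells Myc and Mycn sustain growth and self-renewal, and their loss slows proliferation.

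The libraries held 20894277 to 29079670 counts, with the R783H libraries all deeper than the WT libraries. Counts per gene cannot show the amino-acid change, so it gives no check of the labels. Levels are given as CPM, counts relative to the scaled size of the library, and a gene is called where its adjusted p in edgeR's quasi-likelihood test is under 0.05. Of all tested genes 64.5% were called, 33.5% higher and 30.9% lower in R783H. The 9 markers of embryonic stem cells, of which 3 were called higher and 3 lower (1 and 4 with the offset for transcript length and GC content described under Mga), summed to 7184 to 7300 CPM in R783H and 7285 to 7390 CPM in WT. Of 7 fibroblast markers 3 were abundant enough to be tested and 1 was called, lower in R783H (sum 2.18 to 3.13 CPM against 3.28 to 3.86 CPM). Of 6 primitive endoderm markers 5 were tested and 2 called, both higher (10.2 to 11 CPM against 5.14 to 7.48 CPM). The untested marker, Sox7, was lower in R783H, with 2 to 4 counts per library against 9 to 19 in WT. Of 6 trophectoderm markers 3 were tested, 1 was higher and 2 were lower (14 to 15 CPM against 30.6 to 33.0 CPM). Elf5, another trophectoderm marker, was at 0 in all R783H libraries and had at most 2 counts in a WT library. The part of these cells in the results below was not tested. In bulk RNA, fewer cells of a kind and less RNA per cell cannot be told apart.

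All 3 Myc paralogues, Max and Mxd3 fell in R783H, while Mga, Mnt and Mxd1 rose. Thus 8 of the 10 network genes were called, against 64.5% of all tested genes, and Mxd4 and Mxi1 were not called. The 5 that fell compare with 30.9% of all tested genes called lower, and the 3 that rose with 33.5% called higher. CPM values of R783H and WT did not overlap for the same 8 genes, and for 68.1% of all tested genes (35.0% higher and 33.1% lower in R783H). The median log2 fold change of R783H over WT was -0.10 over the 10 genes and 0.029 over all tested genes.

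**Figure D1:**
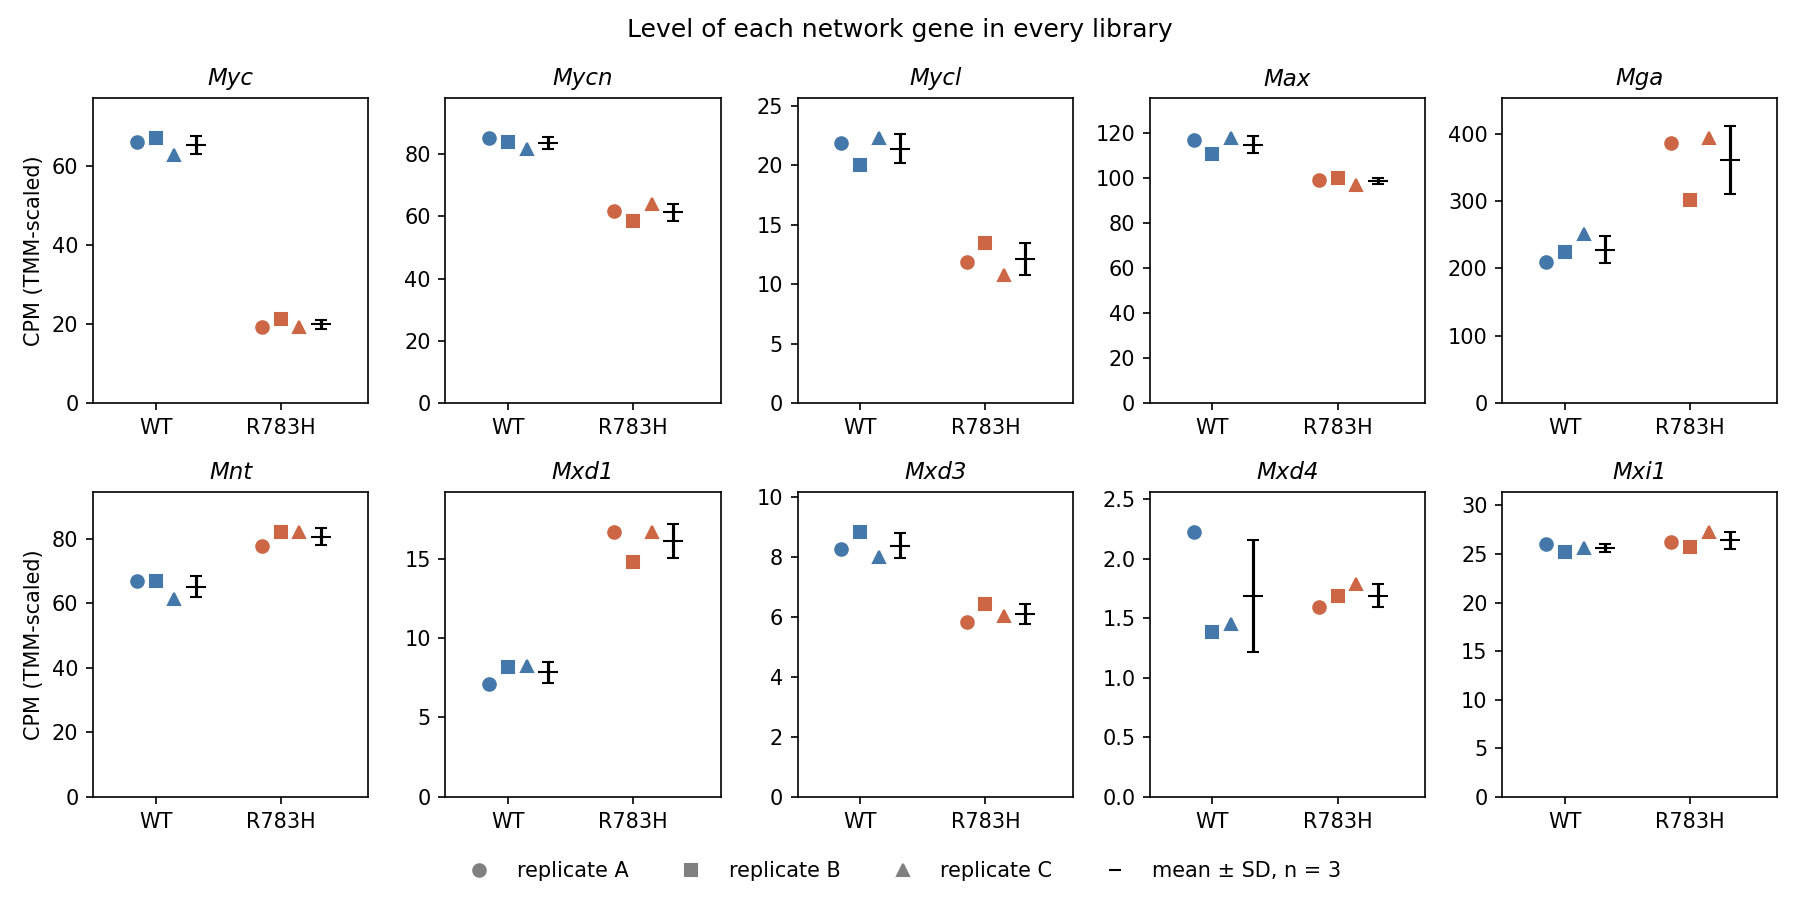
CPM of each network gene (vertical axis, from 0, a separate scale for each gene) in the 3 WT and 3 R783H libraries, with a marker shape for each replicate letter and the mean ± SD of 3 libraries beside them. Myc falls from 62.8 to 67.2 CPM in WT to 19.3 to 21.2 CPM in R783H, and Mxd1 rises from 7.08 to 8.25 CPM to 14.8 to 16.7 CPM.

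Gene coordinates are on the mouse build GRCm38, with Entrez identifiers as in the count table. Myc (Entrez 17869, chr15:61985341-61990361, plus strand) encodes c-Myc, the founding member of the network. Its level was 66.2, 67.2 and 62.8 CPM in WT A, B and C, then 19.3, 21.2 and 19.3 CPM in R783H A, B and C. The groups were far apart, and the 3 R783H libraries differed from each other by less than 2 CPM. The mean fell 3.28-fold, from 65.4 ± 2.33 to 20.0 ± 1.11 CPM (SD, n = 3 each), a log2 fold change of -1.71 (SE 0.06, adjusted p 1.19e-08 by edgeR's quasi-likelihood test). Just 112 of the 14199 tested genes, Myc included, had a log2 fold change this low. Over 16 alternative settings the log2 fold change of Myc stayed between -1.78 and -1.63.

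Mycn (Entrez 18109, chr12:12936093-12941836, minus strand) encodes N-Myc, which can take the place of c-Myc in many settings. Its level was 85.2, 84.0 and 81.6 CPM in WT A, B and C, then 61.6, 58.4 and 63.9 CPM in R783H A, B and C. Every R783H library was thus below every WT library, by a smaller factor than for Myc. The mean fell 1.36-fold, from 83.6 ± 1.86 to 61.3 ± 2.74 CPM (SD, n = 3 each; log2 fold change -0.45, SE 0.05, adjusted p 1.54e-05 by edgeR's quasi-likelihood test).

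Mycl (Entrez 16918, chr4:122995588-123002490, plus strand) encodes L-Myc, the paralogue with the weakest transforming activity. It had 21.9, 20.0 and 22.3 CPM in WT A, B and C, then 11.9, 13.5 and 10.8 CPM in R783H A, B and C. The R783H values all lay below those of WT, and R783H B was the highest of its group. The mean fell 1.77-fold, from 21.4 ± 1.23 to 12.1 ± 1.36 CPM (SD, n = 3 each; log2 fold change -0.83, SE 0.09, adjusted p 1.16e-05 by edgeR's quasi-likelihood test).

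Max (Entrez 17187, chr12:76937269-76962323, minus strand), the shared dimer partner in the network, had 117, 111 and 118 CPM in WT A, B and C. In R783H A, B and C it had 99.1, 100.1 and 97.2 CPM. All R783H values lay below all WT values, although the gap was small. The mean fell 1.17-fold, from 115 ± 3.79 to 98.8 ± 1.49 CPM (SD, n = 3 each), a log2 fold change of -0.22 (SE 0.05, adjusted p 0.00113 by edgeR's quasi-likelihood test). This was the smallest of the called changes in the network, and scaling by library size alone made it -0.14 (adjusted p 0.0147).

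Mga (Entrez 29808, chr2:119872503-119970129, plus strand) encodes a very large protein with both a Max-binding domain and a T-box DNA-binding domain. It had 210.1, 224 and 251 CPM in WT A, B and C, then 386, 302 and 394 CPM in R783H A, B and C. The groups did not overlap, but R783H B stood well below the other R783H libraries. The mean rose 1.58-fold, from 228 ± 20.6 to 361 ± 51.1 CPM (SD, n = 3 each; log2 fold change 0.66, SE 0.09, adjusted p 9.58e-05 by edgeR's quasi-likelihood test). Without R783H B the log2 fold change of Mga was 0.75. The Mga transcript is the longest of the network, at 13931 nt, and log2 fold changes rose with length over 13067 genes (Spearman's rho 0.267, across genes, which are not independent replicates). With an offset for transcript length and GC content the log2 fold change of Mga was 0.21 and it was still called (adjusted p 0.000142).

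Mnt (Entrez 17428, chr11:74830806-74845725, plus strand) encodes the most broadly expressed antagonist of Myc. It had 66.9, 67.0 and 61.4 CPM in WT A, B and C, then 77.6, 82.2 and 82.0 CPM in R783H A, B and C. The lowest R783H library was above the highest WT library. The mean rose 1.24-fold, from 65.1 ± 3.19 to 80.6 ± 2.60 CPM (SD, n = 3 each; log2 fold change 0.31, SE 0.05, adjusted p 0.000348 by edgeR's quasi-likelihood test).

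Mxd1 (Entrez 17119, chr6:86647044-86669234, minus strand) encodes Mad1, which is known to appear when cells leave the cycle and differentiate. It had 7.08, 8.15 and 8.25 CPM in WT A, B and C, then 16.7, 14.8 and 16.7 CPM in R783H A, B and C. Each R783H library was clearly above each WT library. The mean rose 2.05-fold, from 7.83 ± 0.650 to 16.1 ± 1.07 CPM (SD, n = 3 each; log2 fold change 1.03, SE 0.09, adjusted p 2.32e-06 by edgeR's quasi-likelihood test). It had the largest rise in the network.

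Mxd3 (Entrez 17121, chr13:55325170-55329900, minus strand) encodes a Mad protein that, unlike the others, is found in dividing cells in S phase. It had 8.27, 8.85 and 8.01 CPM in WT A, B and C, then 5.82, 6.45 and 6.04 CPM in R783H A, B and C. The groups did not overlap. The mean fell 1.37-fold, from 8.38 ± 0.427 to 6.10 ± 0.318 CPM (SD, n = 3 each; log2 fold change -0.46, SE 0.10, adjusted p 0.00134 by edgeR's quasi-likelihood test). Mxd3 shares exon sequence with Prelid1 on the opposite strand, and whether the authors' counting used strand is not given in the sources used here.

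Mxi1 (Entrez 17859, chr19:53310128-53373293, plus strand), another Mad-type antagonist, had 26.0, 25.2 and 25.6 CPM in WT A, B and C, then 26.2, 25.7 and 27.3 CPM in R783H A, B and C, so the groups overlapped. Its log2 fold change was 0.046, with a 95% interval from -0.08 to 0.17 (adjusted p 0.510, edgeR's quasi-likelihood test). With the length and GC offset the sign of Mxi1 turned, to -0.12 with an adjusted p of 0.0498, where it was called lower. Mxd4 (Entrez 17122, chr5:34176580-34187710, minus strand) was the rarest network transcript, with counts of 45, 34 and 31 in the WT libraries and 48, 48 and 53 in the R783H libraries, in the order of their letters. That is a mean of 1.69 ± 0.468 CPM in WT and 1.69 ± 0.0961 CPM in R783H (SD, n = 3 each), and the groups overlapped. Its log2 fold change was 0.018, and the 95% interval from -0.44 to 0.47 includes changes as large as that of Mnt in either direction. Mxd4 and Mxi1 each share exon sequence with a gene on the opposite strand, Gm42846 and Gm10197.

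**Figure D2:**
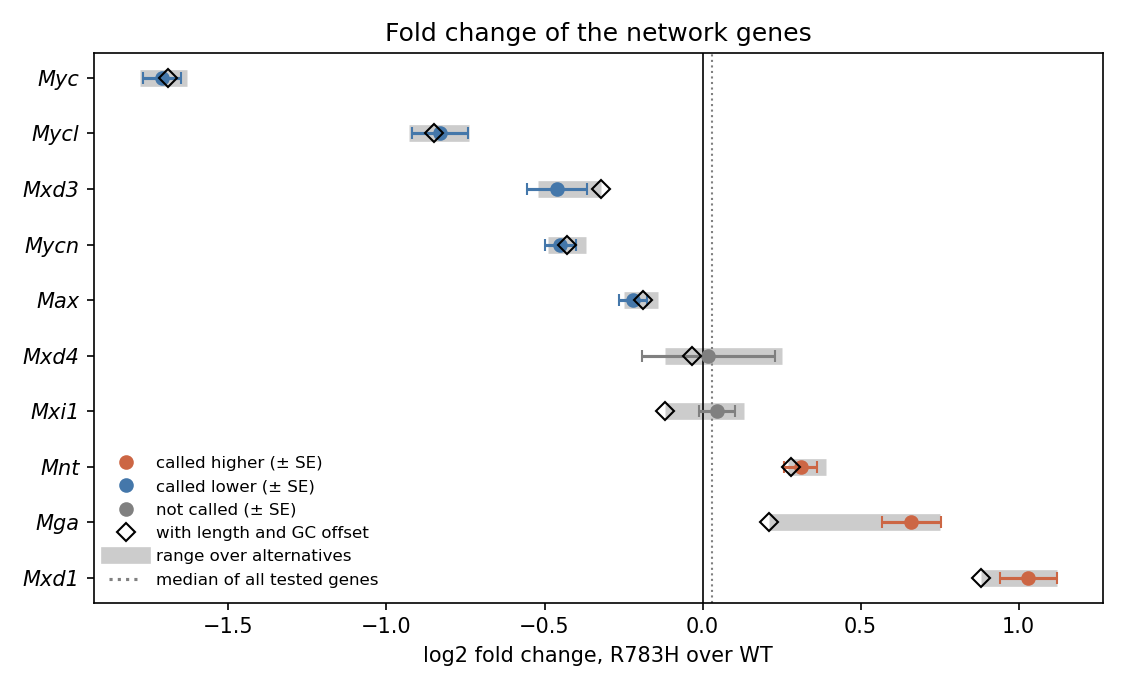
Log2 fold change of R783H over WT (horizontal axis) of the 10 network genes, with filled points for the fit reported in the text, bars for ± SE, grey bands for the range over 16 alternative settings and open diamonds for the fit with the length and GC offset. Myc lies at -1.71 and Mxd1 at 1.03, and the widest shift by the offset is that of Mga, from 0.66 to 0.21.

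Read counts rise with transcript length, so levels of different genes were compared as CPM per kb of the longest protein-coding transcript. In WT the order was Max at 59.4 ± 1.95, Mycn at 31.3 ± 0.697, Myc at 28.0 ± 0.995, Mga at 16.4 ± 1.48 and Mnt at 14.2 ± 0.694 CPM per kb (SD, n = 3 each). Mxd3 (6.31 ± 0.322) and Mycl (6.11 ± 0.352) followed with overlapping values, then Mxi1 (5.08 ± 0.0831), Mxd1 (1.68 ± 0.139) and Mxd4 (0.436 ± 0.121). In R783H Max was again the highest by this length, at 50.9 ± 0.765 CPM per kb. Mga (25.9 ± 3.67) and Mycn (22.9 ± 1.02) came next and overlapped, and Mnt (17.6 ± 0.567) stood above Myc (8.54 ± 0.476). Myc was thus at rank 3 in WT and rank 5 in R783H, and Mycl and Mxd1, at 3.44 CPM per kb each in R783H, overlapped there. The order depended on the length used, which was checked after the values were seen. With the median transcript length Myc was at rank 4 in WT and 7 in R783H, Mga and Mnt were above it in both groups, and Mga (171 CPM per kb) was above Max (131) in R783H. With the coding length Myc was at rank 3 and 7 and Max was the highest in both groups. Myc ranked lower in R783H than in WT with each of the 3 lengths.

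The Myc paralogues together made up 66.4, 65.9 and 63.7 CPM per kb in WT A, B and C, but only 34.7, 34.8 and 35.2 CPM per kb in R783H A, B and C. Mycn was the main paralogue in R783H, with 66.4%, 62.8% and 67.8% of that sum in its libraries A, B and C. In WT it held 48.0%, 47.7% and 47.9%. Myc made up 42.8% ± 0.762 in WT and 24.5% ± 1.45 in R783H, and Mycl 9.36% ± 0.663 and 9.87% ± 1.16 (SD, n = 3 each), so the share moved from Myc to Mycn. The antagonists Mnt, Mxd1, Mxd3, Mxd4 and Mxi1 summed to 27.7 ± 0.910 CPM per kb in WT and 31.3 ± 0.715 in R783H. The ratio of the antagonist sum to the paralogue sum was between 0.418 and 0.430 in the WT libraries and between 0.879 and 0.905 in the R783H libraries. These sums were formed after the values had been seen and carry no test. With the coding length in place of the transcript the ratio was 0.731 ± 0.00713 in WT and 1.6 ± 0.0300 in R783H, and with the median transcript length 1.14 ± 0.0357 and 2.63 ± 0.0938. Its size thus depended on the length used, and it was higher in R783H with all 3 lengths. The antagonist sum was 93.4 CPM per kb in WT and 111 in R783H with the coding length. With the median transcript length that sum was 113 and 137.

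**Figure D3:**
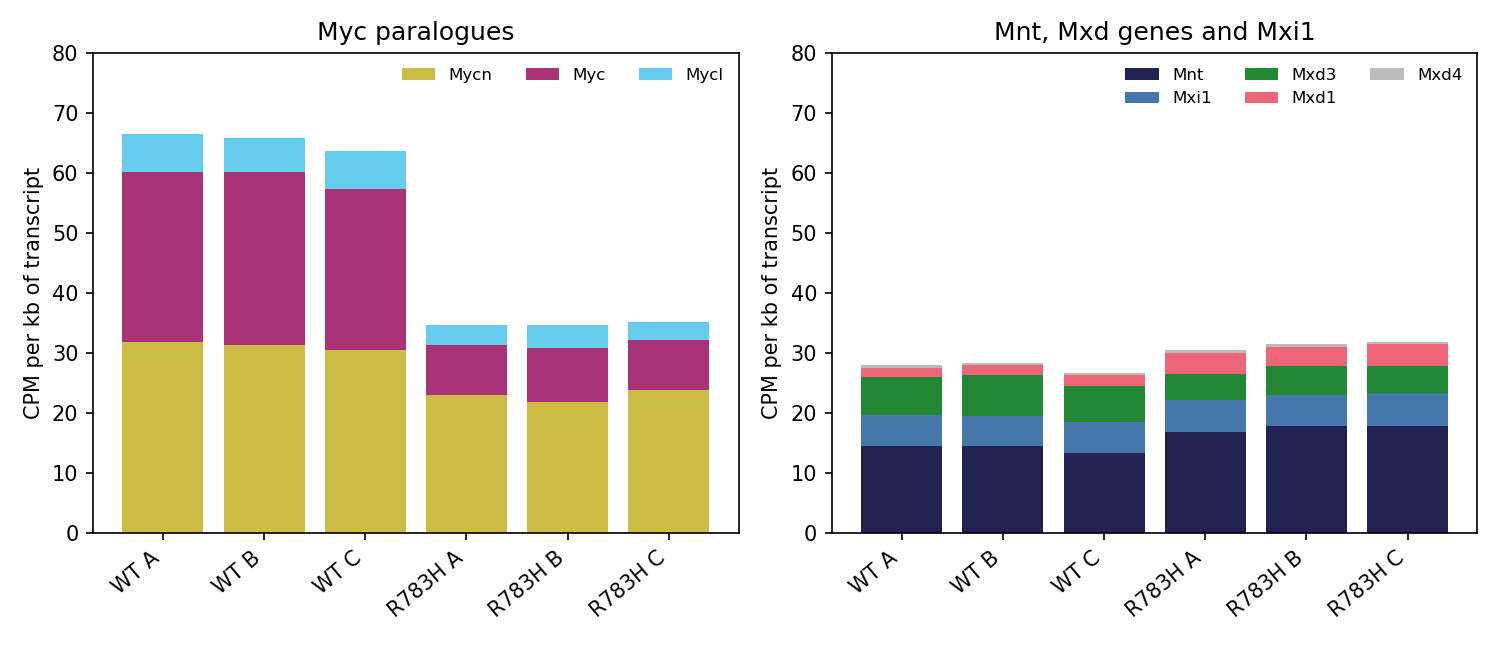
Stacked CPM per kb of transcript (vertical axes, from 0 on the same scale) of the 3 Myc paralogues and of the 5 antagonists in each library. The paralogue stacks drop from 63.7 to 66.4 in WT to 34.7 to 35.2 in R783H. The antagonist stacks are higher in R783H by a smaller step (26.7 to 28.4 in WT, 30.5 to 31.9 in R783H).

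Genes that surround the network were taken from lists of general knowledge, which were written with earlier results of these data known. Mlx, Mlxip and Mlxipl form a parallel branch that responds to glucose, and Bmyc is a short relative of Myc without the DNA-binding domain. Of the 4 tested genes of this list 1 was called higher and 2 lower, where 33.5% of all tested genes were higher and 30.9% lower. Bmyc fell from 12.4 ± 0.587 CPM in WT to 7.18 ± 0.851 CPM in R783H (SD, n = 3 each; log2 fold change -0.79, SE 0.10), and shares a stretch of 623 nt with A230005M16Rik. Mlx, the Max-like partner of this branch, fell by 0.25 on the log2 scale (SE 0.06), and Mlxipl, the glucose sensor ChREBP, rose by 0.79 (SE 0.19) at no more than 1.96 CPM in any library. Mlxip was at -0.016 and was not called, but the fit with the length and GC offset called it lower, at -0.26 (adjusted p 3.61e-05). Mycs had 0 counts.

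Most PRC1.6 genes fell while Mga rose. Of 13 genes 11 were called lower and 1 higher, that is 84.6% lower against 30.9% of all tested genes, with a median log2 fold change of -0.36 against 0.029. Tfdp1, the DNA-binding partner of E2f6, fell from 225 ± 3.70 to 141 ± 5.06 CPM, and Cbx1, which encodes the HP1 protein beta, from 156 ± 4.50 to 105 ± 5.73 CPM (SD, n = 3 each). The fall was 0.67 (SE 0.04) for Tfdp1 and 0.57 (SE 0.05) for Cbx1 on the log2 scale. Ring1, a ubiquitin ligase of polycomb complexes, changed by -0.42 (SE 0.11) and Yaf2, its adaptor, by -0.47 (SE 0.13), both under 9 CPM. Pcgf6 and L3mbtl2, the subunits that define PRC1.6, were chosen after their values were seen and changed by -0.35 (SE 0.04) and -0.24 (SE 0.05). E2f6 itself was not called (-0.11, SE 0.06). The gene called higher was Rybp, at 0.19 (SE 0.07), which was no longer called with the length and GC offset or without R783H A, R783H C, WT A or WT B.

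Of 20 germline genes described as repressed by Mga and Max, 19 were tested. Of these 4 were higher (21.1%, against 33.5% of all tested genes) and 8 lower (42.1%, against 30.9%), with a median log2 fold change of -0.35. Ddx4, an RNA helicase of germ cells, went from 8.45 ± 0.143 CPM in WT to 3.27 ± 0.447 CPM in R783H (SD, n = 3 each), a log2 fold change of -1.36 (SE 0.12). Zcwpw1, a histone reader of meiosis, changed by -1.07 (SE 0.14) and Tex11, a meiotic gene on the X chromosome, by -1.09 (SE 0.14). Sycp1, of the synaptonemal complex, went the other way, from 5.60 ± 1.21 to 11.7 ± 2.59 CPM (log2 fold change 1.06, SE 0.18). Rpl10l had 129 CPM in R783H and 128 CPM in WT and was not called, and as a close copy of Rpl10 its counts are uncertain.

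Among corepressor and coactivator genes more were called lower than higher. The lists share genes, so their counts are not independent. Hdac1 and Hdac2 stood in both the PRC1.6 and Sin3 lists, and Wdr5 in both the PRC1.6 and coactivator lists. Cbx3 of PRC1.6 and Plk1 of the turnover list were also among the Myc targets below. All of these shared genes were called lower. Of the 15 genes of the Sin3 complex 9 were lower and 2 higher (60.0% lower against 30.9%), with a median log2 fold change of -0.14. Scaling by library size alone made this 5 lower and 4 higher. Over all tested genes that scaling gave 3603 lower and 5673 higher, against 4391 and 4761. The scaffolds Sin3a (-0.06, SE 0.04) and Sin3b (0.11, SE 0.05) were not called, and both were chosen after their values were seen. With the length and GC offset Sin3a was called lower, at -0.24 (adjusted p 8.42e-06). The histone chaperone Rbbp4 fell from 691 ± 9.47 to 517 ± 37.5 CPM (log2 fold change -0.42, SE 0.05) and Brms1, a corepressor subunit, changed by -0.38 (SE 0.05). Arid4a (0.42, SE 0.11) and Arid4b (0.56, SE 0.12) were the 2 that rose, and R783H B was the lowest R783H library for both. Transcripts of Brms1 and Rbbp4 share long stretches with other genes, so their counts are uncertain. Shorter shared stretches of at least 100 nt were found in Mlx, Zcwpw1, Ruvbl2, Actl6a, Plk1, Odc1, Ndrg1, Cdkn1a and Mga, and genes named outside the rule were not searched.

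Of 13 coactivator genes, with Zbtb17 (Miz1) among them, 8 were lower (61.5%, against 30.9% of all tested genes) and 4 higher (30.8%, near the background of 33.5%), with a median log2 fold change of -0.20. Ruvbl2, an ATPase of the TIP60 complex, fell from 386 ± 11.8 to 237 ± 18.9 CPM (log2 fold change -0.70, SE 0.06). Actl6a, an actin-related subunit, changed by -0.57 (SE 0.05) and the acetyltransferase gene Kat2a by -0.38 (SE 0.05). The 4 that rose were Trrap, Ep400, Ep300 and Crebbp, all with large coding sequences, and Ep300 had a log2 fold change of 0.38 (SE 0.07). When length and GC content were fitted as an offset, edgeR's quasi-likelihood test called 0 of the 13 higher (0 also at an unadjusted p under 0.05) and 9 lower. Ep400 was among these 9, at -0.10 (adjusted p 0.0135 by the same test). Trrap was at -0.03, Crebbp at -0.03 and Ep300 at 0.05, none of them called. Without the offset, DESeq2 and limma called the same number higher as edgeR, 4 each.

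Among 13 genes that act on the stability of Myc proteins 8 were lower and 4 higher, again 61.5% and 30.8% against 30.9% and 33.5% of all tested genes, with a median log2 fold change of -0.21. The kinase gene Aurka, whose product stabilises N-Myc, fell from 235 ± 10.2 to 107 ± 6.03 CPM (log2 fold change -1.13, SE 0.05). Plk1, another mitotic kinase, changed by -0.87 (SE 0.06) and the ubiquitin ligase gene Skp2 by -0.51 (SE 0.05). Fbxw7, the ligase that marks phosphorylated c-Myc for degradation, was not called (0.13, SE 0.07). The rises were in Huwe1, Usp28, Usp37 and Gsk3b, of which Usp28 alone was called higher with the length and GC offset.

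The list of genes described as direct Myc targets moved almost as a whole. Of 73 genes 72 were tested, 64 were called lower (88.9%) and 2 higher (2.78%), against 30.9% and 33.5% of all tested genes. The median log2 fold change was -0.50, against 0.029 for all tested genes, and it ranged from -0.54 to -0.49 when any single library was left out. Median transcript length in the list was 2436 nt against 3099 nt over all tested genes. With the length and GC offset 63 were lower and 3 higher, and the median was -0.51. Of the 13067 genes in that fit 4921 were lower and 4099 higher, with a median of -0.032.

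The largest falls were in genes of ribosome production and polyamine synthesis. Nop16, a factor of the large ribosomal subunit, fell from 113 ± 2.33 CPM in WT to 53.3 ± 3.81 CPM in R783H (SD, n = 3 each), so the groups were far apart. Its log2 fold change was -1.08 (SE 0.06, adjusted p 1.00e-07 by edgeR's quasi-likelihood test). Odc1, the rate-limiting enzyme of polyamine synthesis and a classical E-box target, had 433, 428 and 415 CPM in WT A, B and C, then 202, 222 and 204 CPM in R783H A, B and C. That is a fall of 2.03-fold (log2 fold change -1.02, SE 0.05). Srm, the spermidine synthase that acts downstream of Odc1, had 451, 428 and 395 CPM in WT A, B and C, then 192, 225 and 194 CPM in R783H A, B and C (log2 fold change -1.06, SE 0.07). Bop1, a partner of Pes1 in ribosomal RNA processing, fell from 300.4 ± 16.1 to 149 ± 13.1 CPM (SD, n = 3 each; log2 fold change -1.01, SE 0.06).

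Other targets, chosen after their values were seen to cover the roles in the list, fell less. The nucleolar protein genes Npm1 (-0.50, SE 0.05), Ncl (-0.38, SE 0.07) and Fbl (-0.58, SE 0.07) were lower, as was Nolc1 (-0.72, SE 0.04). The same held for Cad of pyrimidine synthesis (-0.31, SE 0.05), Ldha of glycolysis (-0.50, SE 0.06), the translation initiation factor gene Eif4e (-0.55, SE 0.04) and the transferrin receptor gene Tfrc (-0.66, SE 0.06). The 2 targets that rose were the hexokinase gene Hk2, from 554 ± 24.7 to 818 ± 27.9 CPM (SD, n = 3 each; log2 fold change 0.56, SE 0.05), and the telomerase gene Tert (0.38, SE 0.06). The 6 tested targets without a call were Exosc5, Supv3l1, Cdk4, Sord, Shmt2 and Plk4. Among them Cdk4, a kinase of the entry into the cell cycle, stood at 704 ± 14.9 CPM in WT and 700.3 ± 45.8 CPM in R783H. Dusp2 was too rare to be tested.

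Of 6 genes that Myc is known to repress together with Miz1, 2 were called higher, which at 33.3% is the background share (33.5% of all tested genes). The other 4 were not called, and the median log2 fold change was 0.32 against 0.029 for all tested genes, with 1 of the 6 values negative. No gene was lower by edgeR's quasi-likelihood test, DESeq2 or limma (0 each), and 0 were lower at an unadjusted p under 0.05. Of all tested genes 30.9% were called lower, so a 0 among 6 genes says little. Ndrg1, a stress-response gene named for its repression by N-Myc, had 15.8, 13.9 and 15.4 CPM in WT A, B and C, then 36.4, 48.4 and 45.4 CPM in R783H A, B and C. It rose 2.88-fold (log2 fold change 1.53, SE 0.10, adjusted p 4.55e-07 by edgeR's quasi-likelihood test). Cdkn1a, the cyclin-dependent kinase inhibitor p21, stood at 144 ± 2.36 CPM in WT and 204 ± 10.8 CPM in R783H (SD, n = 3 each), a rise of 0.50 on the log2 scale (SE 0.05). Cdkn2b, Gadd45a, Ndrg2 and Gata6 were not called, and Gata6 had just 3 to 19 counts per library. With the length and GC offset Ndrg2 was called higher, at 0.17 (adjusted p 0.0360 by edgeR's quasi-likelihood test).

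**Figure D4:**
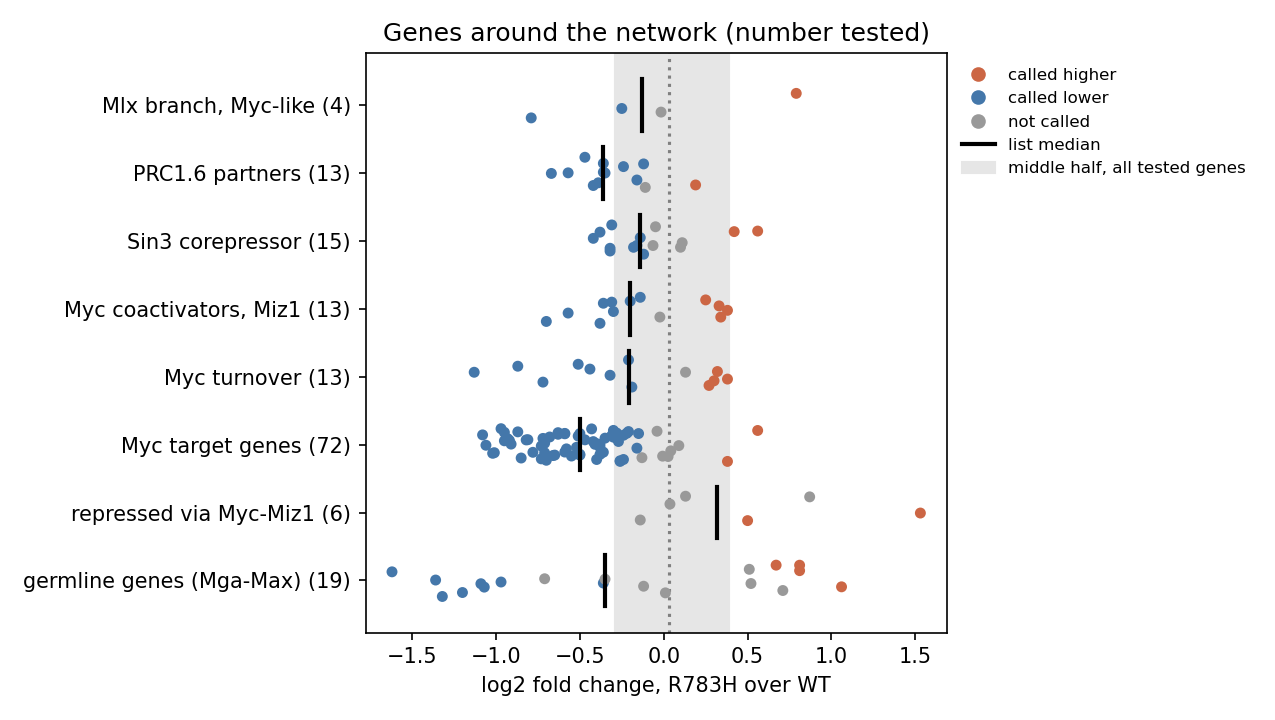
Log2 fold change of R783H over WT (horizontal axis) of each tested gene in the 8 lists around the network, coloured by call, with black bars at the list medians, a grey band over the middle 50% of all tested genes and a dotted line at their median. The Myc target genes lie mostly left of 0, with a median of -0.50, and the genes repressed through Myc and Miz1 have a median of 0.32.

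The E-box CACGTG was searched in RefSeq promoter windows of GRCm38.p6, which run from 250 bases before to 50 bases after a start of transcription. This motif reads the same on both strands. The table held windows for 9 of the 10 network genes, Myc being the exception, and Max, Mnt and Mxd4 had the motif. They are shown because the E-box is the sequence that dimers of this network bind. They are followed by 4 targets that fell and hold the motif, chosen after their values were seen. Capitals mark the E-box, and each sequence is 30 bases of the strand of the gene.
Max: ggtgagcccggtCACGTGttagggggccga
Mnt: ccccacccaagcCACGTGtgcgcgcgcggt
Mxd4: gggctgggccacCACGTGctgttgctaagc
Phb: ttgaggaataggCACGTGcatatattacca
Prmt3: gccccctacgccCACGTGacccggaagcgc
Imp4: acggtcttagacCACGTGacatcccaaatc
Hspd1: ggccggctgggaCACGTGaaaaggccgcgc

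The sequence of Max (chr12:76962234-76962263, minus strand) holds its E-box 3 bases before the start, so that the motif spans the start of transcription. This start and that of Mnt lie inside the outermost bounds of their genes given above. In Mnt (chr11:74830789-74830818, plus strand) the motif begins 123 bases before the start, and in Mxd4 (chr5:34187912-34187941, minus strand) 219 bases before it. The 3 network genes with the motif did not move together, as Max fell, Mnt rose and Mxd4 was not called. Among the targets shown the motif begins 232 bases before the start in Phb (chr11:95666713-95666742), 13 in Prmt3 (chr7:49778333-49778362), 121 in Imp4 (chr1:34439696-34439725) and 80 in Hspd1 (chr1:55088306-55088335). Phb and Hspd1, which encode a prohibitin and a chaperonin of mitochondria, changed by -0.95 (SE 0.06) and -0.70 (SE 0.05). Prmt3, an arginine methyltransferase of a ribosomal protein, changed by -0.81 (SE 0.05) and Imp4, a factor of the small ribosomal subunit, by -0.73 (SE 0.06).

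Of all 32851 windows 7.15% held CACGTG. Of the 65 targets with a window 19 held it (29.2%), against 11.9% of the 10766 tested genes with a window. Within the target list the medians were close, at -0.53 over 18 tested genes that hold it and -0.49 over 46 that do not. Of those 18 genes 16 were called lower, and of those 46 genes 40 were. Nop16 and Odc1 had windows without CACGTG, while Cdk4 and Exosc5 held it and were not called. Over all tested genes with a window the median was -0.0032 for the 1281 genes with CACGTG and 0.025 for the others, and 35.4% and 31.2% were called lower. Of the germline genes 10 of 18 held CACGTG (55.6%, against 11.9% of tested genes with a window), with 3 higher and 5 lower. Among all tested genes with CACGTG 33.3% were called higher and 35.4% lower. The T-box motif GGTGTGA, searched on both strands because Mga has a T-box domain, was in 3.98% of windows, and tested genes with it had a median of 0.032 against 0.022 without. The E2F motif GGCGGGAA, also on both strands, was in 2.19% of windows, with medians of -0.055 with and 0.027 without, and Mxd3 was the network gene that held it. A match of letters is a description and not a bound site.

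The genes whose log2 CPM followed a Myc paralogue most closely over the 6 libraries were found among 11688 genes. For Myc they were Jpt1 (Pearson r 0.9999), Maoa (0.9999) and Kif20a (0.9998), for Mycn Coa6 (0.9990), Mrpl42 (0.9988) and Ube2d2a (0.9982), and for Mycl Asnsd1 (0.9996), Prorp (0.9988) and Ormdl3 (0.9974). All 9 had negative log2 fold changes, from -1.04 in Jpt1 to -0.21 in Prorp. This sign follows from their choice by likeness to genes that fell. The points share the 2 groups, and 20.0% of the compared genes had an r above 0.95 with Myc, 13.4% with Mycn and 16.2% with Mycl, so such a likeness is common here and is given as a description.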

How the data were processed

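The authors deposited a single table of raw read counts per gene, by Entrez identifier, with a column for each of the 6 libraries. HISAT2, SAMtools and CASAVA 1.4 and the build mm10 are named in the submitters' processing notes, without roles. The counting tool, annotation and use of strand are not given in the sources used here. Symbols came from RefSeq on GRCm38.p6 (25275 of 27179 identifiers) and transcript lengths and GC content from the longest protein-coding transcript in GENCODE M21.

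Genes were filtered with filterByExpr (minimum count 10, minimum total 15), scaled by TMM and tested with edgeR 4.0.16 in R 4.3.3 by the quasi-likelihood test, with group as the single term and Benjamini-Hochberg adjustment over 14199 genes. Fold changes are log2 of R783H over WT, the SE is their size over the square root of F, and a 95% interval uses the test's degrees of freedom. Limma 3.58.1 and DESeq2 1.42.0 served as alternatives. The offset came from splines of log length and GC content with 4 degrees of freedom each, on 13067 genes (92.0%). The steps were tested on simulated data of 14199 genes. Of 100 genes changed 2-fold 93 were called in the right direction, and of 100 changed 1.5-fold 82. Among the unchanged genes 14 were called. Far fewer genes changed there than were called in these data, so the scaling was not checked at such a share. Shared stretches (at least 98% identity over 100 nt) were looked for with BLAST 2.17.0 among all transcripts. At these depths 3 counts correspond to 0.103 to 0.144 CPM, for counting error only.

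The network genes and lists were chosen with earlier results of these data known. All network genes are named. Of each list around the network, up to 4 called genes with the largest change are named. These were taken among genes with a mean of 50 counts or more in the higher group. The 3 genes most like each Myc paralogue are named as well. The lists of cell type markers are given mainly as counts of calls and sums, without this rule. Any other gene named was chosen after its values were seen. A gene that the rule names is not reported here. The alternatives were 3 other scalings, 2 other filters on low counts, both other tools, a replicate block, the offset, thinning to equal depth, and leaving out each of the 6 libraries.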

Additional observations from a re-analysis of the deposited data

How the results depend on the processing

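Over 16 alternatives, the 8 called network genes kept call and direction in every fit, and the number of calls over all genes lay between 8161 (without WT B) and 9882 (without R783H B), against 9152. Of 160 values of network genes under these alternatives, 159 kept their direction and side of the threshold or stayed uncalled. The exception was Mxi1 with the length and GC offset, at -0.12. With that offset the genes called higher were 0 of the PRC1.6 list, 0 of the coactivators and 1 of the turnover list. Leaving out each library gave 0 to 1 for PRC1.6. Scaling by library size alone gave 4 higher and 5 lower in the Sin3 list, and 5673 higher and 3603 lower over all tested genes. With the length and GC offset 3 genes of the Mlx list were lower, against 2. With the median transcript length, the percent of the paralogue sum in R783H and WT was 21.4 and 36.8 for Myc, 46.8 and 33.5 for Mycn and 31.8 and 29.7 for Mycl. With the coding length it was 21 and 37.6 for Myc, 15.6 and 15.2 for Mycl, and 47.2 for Mycn in WT. The median of genes with CACGTG was -0.05 with the offset, between -0.027 and -0.0031 with a library left out, and 0.042 for genes with any CANNTG, where it changed sign. The cause of these shifts was not tested.

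With the replicate letter as a replicate block 9260 genes were called, and 8 of the network genes, with 0 changed calls among them. Deviations of same-lettered libraries correlated at -0.07 for A, 0.0068 for B and 0.085 for C. Of the 3 R783H libraries 1 correlated best with its own letter. The counts thus showed no clear effect shared by letter, which cannot tell whether the libraries were paired when they were made.

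Depth limits Mxd4 most, with 31 to 53 counts per library.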

Other observations

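R783H B differed from R783H A and C in a way that followed transcript length and base composition. Across 13067 genes the difference in log2 CPM between R783H B and the mean of A and C had a Spearman's rho of -0.328 with transcript length and 0.476 with GC content, where genes are not independent replicates. The median difference was 0.10 among the 10% of genes of at most 1288 nt and -0.14 among the 10% longer than 6685 nt. Mga was at -0.37, Arid4b at -0.49 and Ncl at -0.27. Of the 23 network and list genes called higher in R783H, 18 had R783H B as the lowest R783H library. Of the 110 called lower, 73 had it as the highest and 26 as the lowest. The matching shares over all called genes were not computed, so these counts do not set the network and lists apart from other genes.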
